A study of Mus musculus with 31 samples.

Results

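The genes examined were those of the cytosolic ribosomal proteins, taken as every symbol made of Rpl or Rps followed by a number with at most 1 letter, by "a" alone, or by p0, p1 or p2, without the pseudogenes that carry "-ps". This rule gave 82 of the 31172 gene symbols, 50 of the large subunit (*Rpl*, with the stalk genes *Rplp0*, *Rplp1* and *Rplp2*) and 32 of the small subunit (*Rps*). *Rpl6l* and *Rps4l* carry no "-ps" but are annotated as processed pseudogenes, *Rps4l* as a transcribed one. Their mRNA was measured in the livers of 31 mice of the *hFIX-R29X* strain. This hemophilia model carries a human factor IX minigene with a nonsense mutation and lacks the mouse factor IX gene. All 5 groups had this background and were 8 to 14 weeks old. The vehicle group held 11 DPBS-treated mice (6 female, 5 male). Control-GalNAc-ASO, an antisense oligonucleotide for comparison, was given at 15 mg/kg to 4 mice (2 female, 2 male) and at 20 mg/kg to 6 mice (3 female, 3 male). *Upf3b*-GalNAc-ASO, directed at the mRNA of the nonsense-mediated decay (NMD) factor *Upf3b*, was given at 10 mg/kg to 5 mice (2 female, 3 male) and at 20 mg/kg to 5 mice (2 female, 3 male). GalNAc is a sugar that carries an oligonucleotide into hepatocytes, and 6 doses were given under the skin, 5 days apart, with livers taken 48 h after the last. The mice given *Upf3b*-GalNAc-ASO at 20 mg/kg are numbered 1, 2, 4, 5 and 6, and values are given in the order of the numbers. The same dose of both oligonucleotides was thus compared at 20 mg/kg, whereas the comparison of 10 mg/kg with 15 mg/kg differs in dose as well.

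Each cytosolic ribosome is built from a small subunit, which decodes the mRNA, and a large subunit, which joins the amino acids, and nearly every protein of either subunit is present once. Their mRNAs are among the most abundant of any cell and typically begin with a C followed by a run of pyrimidines, the terminal oligopyrimidine (TOP) tract, through which mTOR and LARP1 control their translation. NMD destroys mRNAs with premature stop codons. Several ribosomal protein genes, *Rpl3* and *Rpl12* among them, produce spliced forms with such stops, and their protein promotes the use of those forms. Ribosomal protein mRNAs have also been copied into the genome many times as processed pseudogenes, so that a short read often matches several places.

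Start sites are shown because the tract is a sequence feature known for these genes that the choice of symbols did not use. RefSeq promoters (GRCm38.p6, 250 bases before to 50 after the start) were found for 60 members, with 72 start sites. Each line gives 30 bases, 15 of them before the start site, with the pyrimidine run of at least 5 bases nearest to the start in capitals. The first 9 genes have C at the start followed by at least 4 pyrimidines, and the last 3, which recur in the results, do not.
Rplp2 (chr7:141447636-141447665, plus strand): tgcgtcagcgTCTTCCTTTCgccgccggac
Rpl14 (chr9:120571502-120571531, plus strand): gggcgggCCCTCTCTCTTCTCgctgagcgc
Rpl15 (chr14:18270972-18271001, minus strand): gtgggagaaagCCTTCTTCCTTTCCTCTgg
Rpl35 (chr2:39005117-39005146, minus strand): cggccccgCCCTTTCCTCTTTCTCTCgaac
Rpl38 (chr11:114668565-114668594, plus strand): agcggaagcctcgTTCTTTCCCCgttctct
Rps6 (chr4:86857353-86857382, minus strand): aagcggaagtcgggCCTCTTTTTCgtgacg
Rps10 (chr17:27635230-27635259, minus strand): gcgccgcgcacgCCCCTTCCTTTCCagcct
Rps18 (chr17:33955651-33955680, minus strand): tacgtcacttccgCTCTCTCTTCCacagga
Rps27 (chr3:90213634-90213663, minus strand): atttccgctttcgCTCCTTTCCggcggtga
Rps19 (chr7:24884898-24884927, plus strand): gagggagcggggtgtggagggCTCTCCCac
Rpsa (chr9:120127751-120127780, plus strand): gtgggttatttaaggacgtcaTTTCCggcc
Rpl11 (chr4:136053379-136053408, minus strand): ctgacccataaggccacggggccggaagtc
Of the 72 starts, 13 (18.1%) had C at the start and at least 4 pyrimidines after it, against 823 (2.51%) of the 32851 starts of all genes. A run of at least 8 pyrimidines within 20 bases of the start was present at 30 of the 72 (41.7%) and at 16.05% of all starts. Counting both strands, the ETS-type letters CCGGAAG were in 26 of the 72 promoters (36.1%) and in 8.86% of all, and GGGCGG was in 42 (58.3%) and in 35.7%. The letters AAGATGG, which YY1 can bind, were in 11 (15.3%) and in 6.34% of all, and CACGTG was in 8 (11.1%) and in 7.15%. TATAAA was in 6 (8.33%) and in 13.6% of all. These are matches of letters in annotated windows, and where a window lacks a tract, another start site may have been used.

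The values are TPM per gene as deposited, whose steps show reads scaled to a common total and not divided by transcript length. Depth was not given per mouse and was estimated from the size of these steps. The estimates were between 1020669 and 7391574 reads per mouse, so that 3 reads, taken as the floor, were worth 0.406 to 2.94 TPM. The study's methods give a higher average depth, and the reason for the difference was not tested. There were 4 mice with under 1500000 reads, and the shallowest was the library labelled *Upf3b*-GalNAc-ASO 10 mg/kg replicate 3, in which the members took 1.73% of the TPM and mitochondrial transcripts 10.0%. *Upf3b* itself was 110.8 ± 21.8 TPM (SD, n = 6) with Control-GalNAc-ASO and 7.80 ± 5.82 TPM (SD, n = 5) with *Upf3b*-GalNAc-ASO at 20 mg/kg. It was 66.9, 27.1, 58.5 and 78.7 TPM in the mice given Control-GalNAc-ASO at 15 mg/kg and 5.97, 20.7, 53.7, 3.95 and 23.3 TPM in those given *Upf3b*-GalNAc-ASO at 10 mg/kg. The 53.7 TPM belong to the library labelled replicate 3 and lie among the control values, so the members' counts and medians at 10 against 15 mg/kg are given with and without it. All 7 hepatocyte markers, albumin among them, were above 0 in every mouse and summed to between 13538 and 36153 TPM, while 7 lymphocyte markers summed to at most 41.1 TPM.

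Of the 82 members, 75 were above 0 in every mouse and 76 (45 large, 31 small subunit) reached a median of 5 TPM in at least 1 group of each comparison and were tested. The 6 others, *Rpl10l*, *Rpl13a*, *Rpl39l*, *Rpl3l*, *Rpl6l* and *Rps12*, had a median of 0 TPM over all mice. *Rpl10l*, *Rpl39l* and *Rpl3l* are the paralogs of *Rpl10*, *Rpl39* and *Rpl3* known from testis or muscle. *Rps12* was listed at 0 in all 31 mice and *Rpl13a* reached at most 17.5 TPM, although both encode core ribosomal proteins of every cell. Both have near-identical copies, and those of *Rps12* are described further on. The 3 copies of *Rpl13a* with values summed to a median of 2.57 TPM over all mice (highest 12.2 TPM). *Rpl13a* and these copies together reached at most 19.7 TPM in any mouse. The reason for the low level of *Rpl13a* was not tested.

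In DPBS-treated mice the member with the highest level was *Rps9*, a small-subunit protein near the mRNA entry, at a median of 3518 TPM (range 2298 to 4099). It was followed by the stalk gene *Rplp1* at 2839 TPM (1566 to 4441), by *Rpl27a* at 1515 TPM (1184 to 2090) and by the stalk gene *Rplp2* at 1237 TPM (717 to 1555). The ranges of *Rps9* and *Rplp1* overlapped, as did those of *Rpl27a* and *Rplp2*. *Rplp0*, whose protein anchors the other stalk proteins, was at 218 TPM (170 to 297), close to the median over the members. The 4 leading genes, *Rps9*, *Rplp1*, *Rpl27a* and *Rplp2*, held 28.9% of the TPM of all members. Per kilobase of transcript, the order changed to *Rplp1* (5689 TPM), *Rps9* (3849 TPM), *Rps21* (1506 TPM), *Rpl36a* (1423 TPM) and *Rpl27a* (1308 TPM). The lowest tested members were *Rpl12* at 21.7 TPM, *Rpl18* at 25.6 TPM and *Rpl35* at 33.8 TPM, or 17.5, 8.55 and 35.7 TPM per kilobase. The labels name a 3′-end library kit, with which reads do not scale with transcript length, and the study's methods another protocol, so the division by length may not apply and the order per kilobase is given as a second description only.

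**Figure D1:**
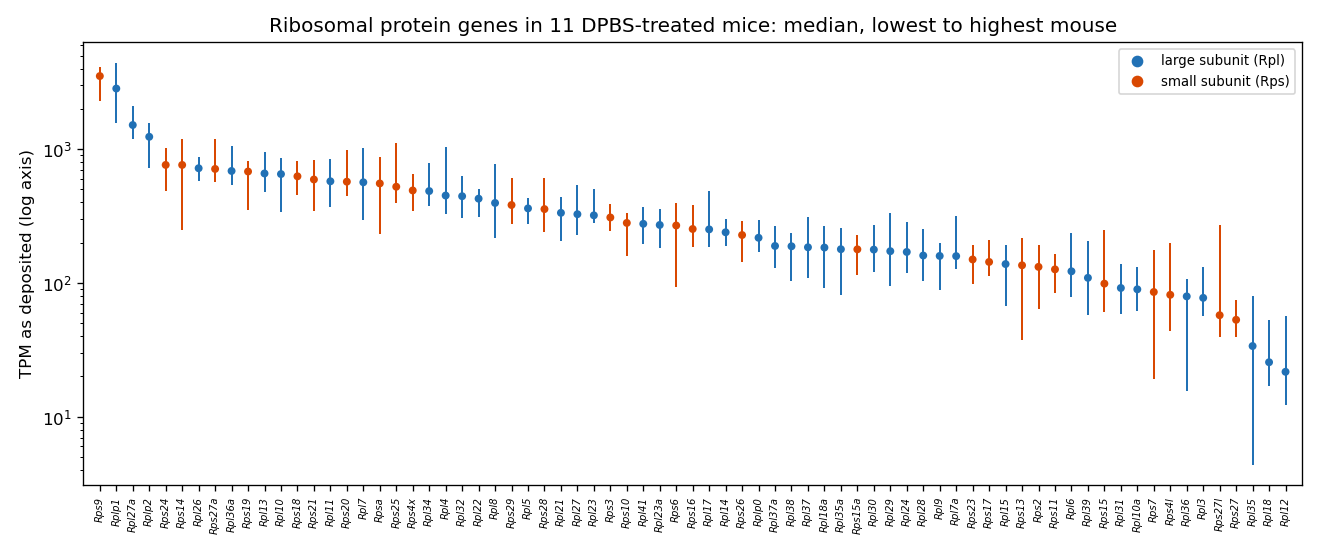
Level of 73 ribosomal protein genes above 0 in all 11 DPBS-treated mice, in TPM on a log axis, with the median as a point, the lowest to the highest mouse as a line, large-subunit genes in blue and small-subunit genes in orange. *Rps9*, *Rplp1*, *Rpl27a* and *Rplp2* have medians above 1000 TPM, and *Rpl12*, *Rpl18* and *Rpl35* lie lowest.

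The median spread of the members between mice of the vehicle group was lower than that of all genes. Among the 76 members with a median of at least 5 TPM, the coefficient of variation over DPBS-treated mice had a median of 24.8% (range 12.2% to 80.8%), against 47.8% over all 8405 genes at that level. With a level of at least 100 TPM, 63 members had a median of 24.1% and 1436 genes one of 31.9%. *Rps3* at 12.2%, *Rpl5* at 13.0%, *Rpl22* at 14.0% and *Rpl26* at 14.1% varied least. Only 4 members exceeded 50%, namely *Rps27l*, a p53-induced paralog of *Rps27*, at 80.8%, *Rpl35* at 70.0%, *Rpl19* at 62.7% and *Rpl12* at 52.9%. Between males and females among DPBS-treated mice, 0 members passed by limma with Benjamini-Hochberg adjustment, where 1.41% of 8998 genes passed. The smallest adjusted p of a member was 0.371. An unadjusted p under 0.05 was found for 4 of the 76 members, *Rpl29*, *Rpl37*, *Rps2* and *Rps28*, each lower in males. Of all 8998 genes, 475 were lower in males and 412 higher at that p, so the members' count is near the share of all genes.

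Copies of these genes took part of the reads, since in DPBS-treated mice the members held 3.13 ± 0.323% of the TPM and the members with their copies 3.71 ± 0.420% (SD, n = 11). A copy was an annotated transcript with at least 95% identity to the last 300 coding bases over at least 80% of them. By this measure 76 members had at least 1 copy, and 497 of the 638 copies had values. For 10 members the copies together had a higher median than the gene itself: *Rpl12*, *Rpl13a*, *Rpl23*, *Rpl35*, *Rpl37*, *Rpl39*, *Rps12*, *Rps23*, *Rps27* and *Rps7*. The values of those 10 are uncertain, since the split of the reads between gene and copy is an estimate.

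The clearest case was *Rps12*, listed at 0, whose copies, led by *Rps12l1* and *Rps12-ps3*, summed to a median of 1364 TPM (range 752.5 to 2497). *Rps23*, a protein of the decoding centre, had 140 TPM in the median against 1042 TPM for its copies, led by *Rps23-ps1*, and took between 4.18% and 32.1% of their sum. *Rpl39*, a small protein of the exit tunnel on the X chromosome, took between 7.90% and 80.4% of the sum with its copies, and *Rpl12*, at the base of the stalk, between 2.68% and 35.6%.

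*Rpl19* and *Rps6* shared reads with their copies in proportions that differed widely from mouse to mouse. *Rpl19*, a protein of the large subunit, ranged from 0 to 255 TPM in the 31 mice and from 0% to 99.8% of the sum with its copies, which itself ranged from 57.7 to 256 TPM. *Rps6*, the substrate of the S6 kinases, ranged from 46.4 to 396 TPM, while the sum ranged from 172 to 492 TPM. By contrast, *Rps19* held at least 97.2% and *Rps14* at least 99.3% of the sum with their copies in every mouse.

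**Figure D2:**
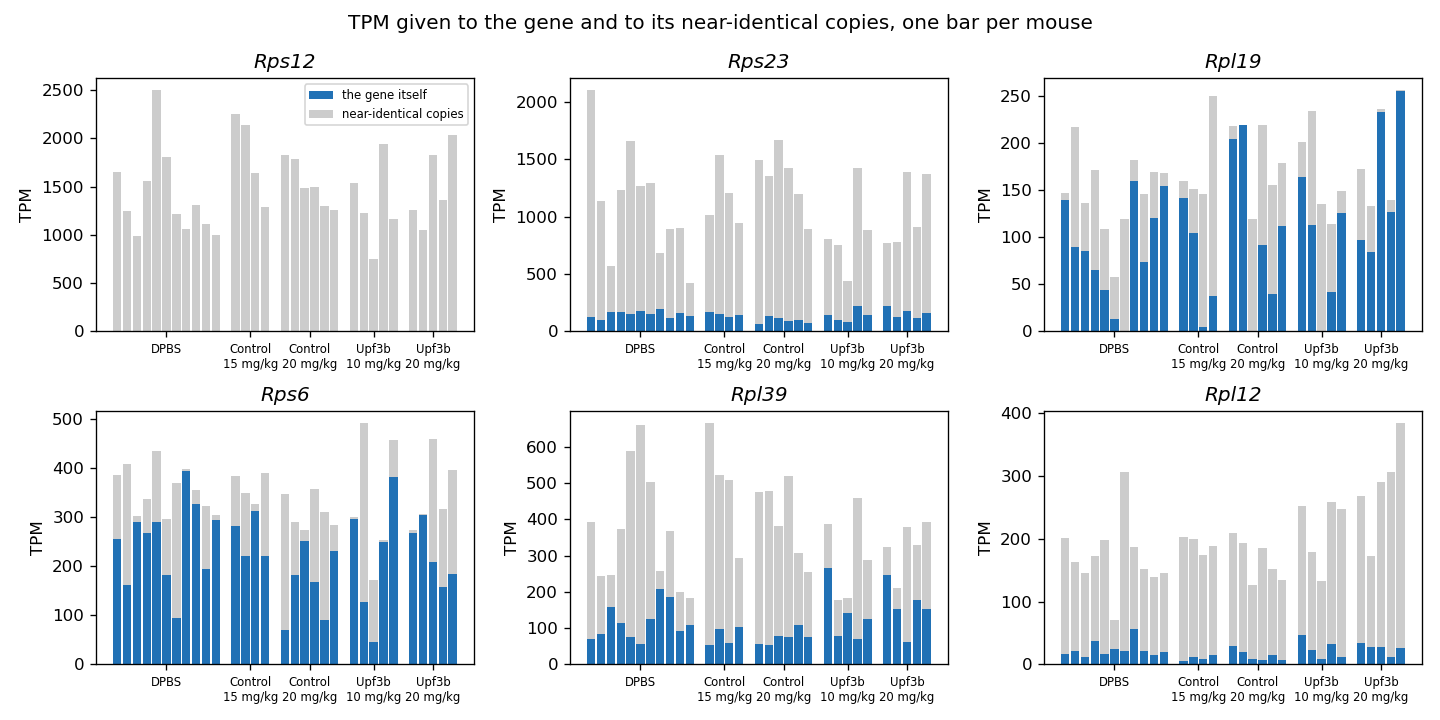
TPM of 6 ribosomal protein genes (*Rps12*, *Rps23*, *Rpl19*, *Rps6*, *Rpl39* and *Rpl12*) in blue with their near-identical copies stacked on top in grey, with 1 bar per mouse in each of the 5 groups. *Rps12* is at 0 in all 31 mice while its copies lie between 752.5 and 2497 TPM, and *Rpl19* ranges from 0 to 255 TPM.

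At 20 mg/kg, ribosomal protein mRNAs were mostly higher with *Upf3b*-GalNAc-ASO than with Control-GalNAc-ASO, by a small amount each. All 82 members together took 2.87 ± 0.329% of the TPM (SD, n = 6, range 2.51 to 3.25) with Control-GalNAc-ASO and 3.67 ± 0.428% (SD, n = 5, range 3.11 to 4.19) with *Upf3b*-GalNAc-ASO. The small-subunit genes took 1.22 ± 0.137% (1.06 to 1.36) and 1.64 ± 0.152% (1.44 to 1.86), without overlap, and the large-subunit genes 1.65 ± 0.200% and 2.02 ± 0.319%. DPBS-treated mice, at 3.13 ± 0.323% for all members (SD, n = 11, range 2.66 to 3.86), lay between both groups and overlapped each. With the near-identical copies added, the shares were 3.56 ± 0.403% and 4.23 ± 0.573%. In whole liver, more cells of a kind and more RNA per cell cannot be told apart.

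**Figure D3:**
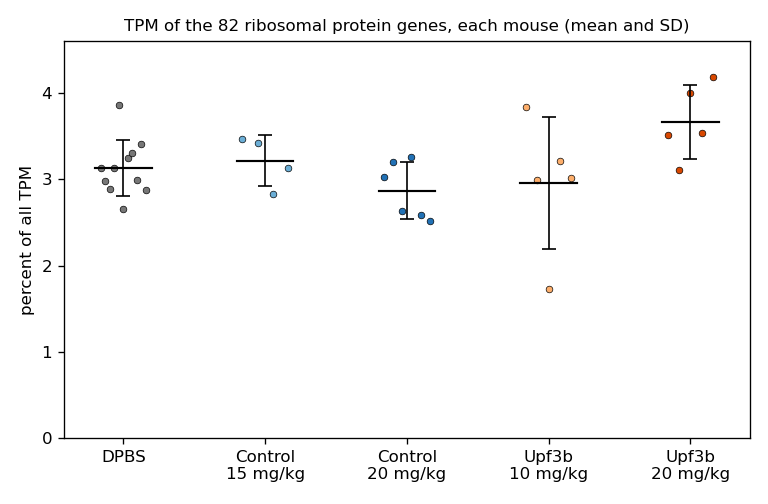
Percent of all TPM taken by the ribosomal protein genes in each mouse, by group, with group means and SD. Mice given *Upf3b*-GalNAc-ASO at 20 mg/kg lie between 3.11% and 4.19% and mice given Control-GalNAc-ASO at 20 mg/kg between 2.51% and 3.25%, and the lowest point, 1.73%, is the library labelled *Upf3b*-GalNAc-ASO 10 mg/kg replicate 3.

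By limma with Benjamini-Hochberg adjustment over 9376 genes, 2 of the 76 tested members passed an adjusted p of 0.05 at 20 mg/kg, where 2.52% of all genes passed. They were *Rps19* and *Rps14*, both small-subunit genes, and both rose. With the study's cut-offs applied to the limma values, a 2-fold change or more together with p no higher than 0.01 before adjustment, *Rps19*, *Rps14* and *Rpl39* passed upward, against 2.36% of all genes. An unadjusted p under 0.05 was found for 21 members in the upward direction, against 7.32% of all genes, and for 0 downward. The mice of both groups did not overlap in 13 members, all higher with *Upf3b*-GalNAc-ASO, against 1.65% of all genes higher without overlap, and in 0 members lower, against 1.82%. They included *Rps4x*, *Rps10*, *Rps14*, *Rps19* and *Rpsa* of the small subunit and *Rpl9*, *Rpl14*, *Rpl23a*, *Rpl28*, *Rpl32*, *Rpl38* and *Rplp2* of the large. The log2 fold change was above 0 for 69 of the 76, with a median of 0.38, while the median over all genes was -0.12 and 72 members stayed within 2-fold. Small-subunit genes (29 of 31 above 0, median 0.43) and large-subunit genes (40 of 45, median 0.36) gave similar values. With the TPM rescaled by median-of-ratios factors from the other genes, the median over all genes was -0.01 and that of the members 0.50, with 72 above 0. Then 6 members passed, with *Rpl32*, *Rps10*, *Rps14*, *Rps19* and *Rpsa* among them, where 281 of all 9372 genes passed.

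*Rps19* (chromosome 7, positions 24884371 to 24889806, plus strand, GRCm38) encodes a protein needed to mature the small-subunit RNA, mutated in Diamond-Blackfan anemia. It was 535, 337, 482, 497, 607 and 536 TPM in the 6 mice given Control-GalNAc-ASO at 20 mg/kg and 951, 801, 944, 1150.5 and 1112 TPM in the 5 given *Upf3b*-GalNAc-ASO. The lowest of the latter was above the highest of the former, while DPBS-treated mice (lowest 352, median 681, highest 817 TPM) had a median between both groups and a range that overlapped each. The log2 fold change was 1.02 (SE 0.23, limma, Benjamini-Hochberg adjusted p = 0.0204). The adjusted p exceeded 0.05 when any 1 of 4 mice was left out, being 0.0532 and 0.0622 without Control-GalNAc-ASO replicates 2 and 3 and 0.0503 and 0.0534 without *Upf3b*-GalNAc-ASO replicates 5 and 6, with log2 fold changes from 0.91 to 1.04. It also exceeded 0.05 without trend and robust (0.0962) and with the replicate block (0.170). One of its 10 annotated transcripts is of the NMD class.

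*Rps14*, whose protein lies on the platform of the small subunit, was 590.5, 353, 407, 462, 430.2 and 700.4 TPM with Control-GalNAc-ASO and 955, 801, 974, 721 and 1367 TPM with *Upf3b*-GalNAc-ASO at 20 mg/kg. The groups did not overlap, but the control value of 700.4 and the treated value of 721 TPM are close. The log2 fold change was 1.002 (SE 0.25, limma, Benjamini-Hochberg adjusted p = 0.0352). This call rested on many single mice, since leaving out Control-GalNAc-ASO replicate 1, 2, 3, 4 or 5 or *Upf3b*-GalNAc-ASO replicate 1, 4 or 6 gave adjusted p-values of 0.0523, 0.0786, 0.109, 0.0601, 0.0788, 0.0718, 0.0587 and 0.109, with log2 fold changes from 0.87 to 1.04. It was 0.125 without trend and robust and 0.210 with the replicate block. DPBS-treated mice spanned 249 to 1186 TPM (median 762), nearly the whole range of both groups.

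Other members had similar sizes without passing the adjustment. *Rpsa*, the laminin receptor precursor at the back of the small subunit, was 457, 607, 276, 569.5, 362 and 321 TPM with Control-GalNAc-ASO and 652, 783, 737, 922 and 888 TPM with *Upf3b*-GalNAc-ASO. *Rpl32*, which lies on the solvent side of the large subunit, was 264, 309, 291, 278, 394 and 332 TPM against 838, 550.1, 502, 422 and 565 TPM. Neither overlapped between groups. Their log2 fold changes were 0.94 (SE 0.26, adjusted p = 0.0527) and 0.88 (SE 0.24, adjusted p = 0.0521) by limma with Benjamini-Hochberg adjustment. *Rps10*, another protein of the small subunit, had 191, 251, 169, 240.0, 131 and 88.8 TPM against 315, 272, 355, 277 and 362 TPM, with a log2 fold change of 0.92 (SE 0.28, limma, Benjamini-Hochberg adjusted p = 0.0812).

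**Figure D4:**
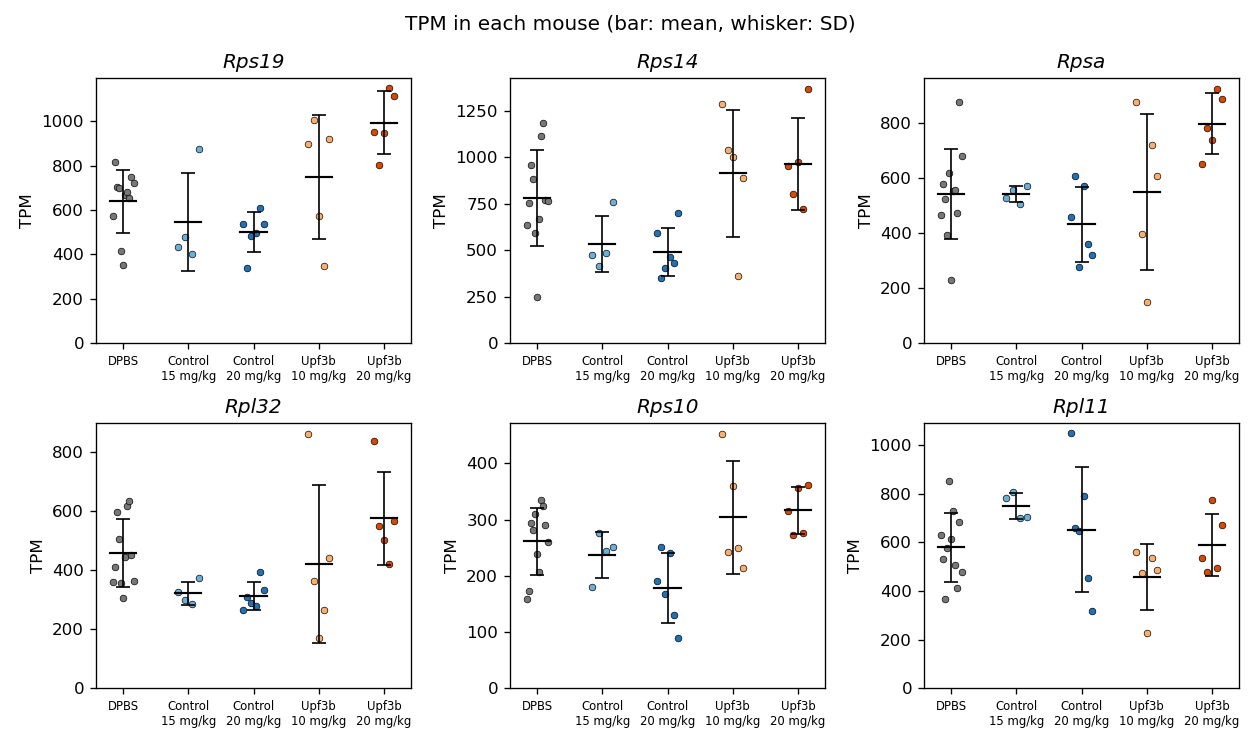
TPM in every mouse of the 5 groups for *Rps19*, *Rps14*, *Rpsa*, *Rpl32*, *Rps10* and *Rpl11*, with 1 point per mouse, the group mean as a bar and the SD as whiskers. At 20 mg/kg the first 5 genes separate *Upf3b*-GalNAc-ASO from Control-GalNAc-ASO treated mice, and at 10 mg/kg *Rpl11* lies lower in all 5 *Upf3b*-GalNAc-ASO libraries than in the 4 controls.

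The largest positive estimate belonged to *Rpl19*, at 1.59 (SE 1.37, adjusted p = 0.584 by limma with Benjamini-Hochberg adjustment), a gene read at 0 TPM in 1 control mouse. *Rpl39*, the small protein of the exit tunnel, had 1.03 (SE 0.31, limma, Benjamini-Hochberg adjusted p = 0.0808), from 55.0, 54.5, 78.3, 75.9, 107 and 76.9 TPM to 246, 152, 63.1, 177 and 153 TPM. Its sum with near-identical copies went the other way, with a log2 fold change of -0.26, so the direction for *Rpl39* depended on how shared reads were assigned. Without *Upf3b*-GalNAc-ASO replicate 4, the mouse at 63.1 TPM, *Rpl39* alone had 1.28 (limma, Benjamini-Hochberg adjusted p = 0.0199). Among the most negative estimates were those of *Rpl35* at -0.64 (SE 0.73), *Rpl4* at -0.33 (SE 0.24), *Rpl21* at -0.18 and *Rps15* at -0.07, none with an unadjusted p under 0.05. *Rpl35* in the control mice was 290.6, 12.1, 39.2, 7.56, 43.1 and 34.3 TPM, so that a single mouse set its mean.

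Over all members with the near-identical copies summed, the median log2 fold change was 0.24, with 59 of 77 above 0 and 3 passing (*Rpl32*, *Rps14* and *Rps19*). The same values with the numbered pseudogenes summed were 0.28, 65 of 77 and 2. Of all genes, 260 of 9305 passed with the copies summed and 253 of 9334 with the pseudogenes summed. The family thus stayed above the median of all genes (-0.12) with copies counted in, by a smaller amount.

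Members with an annotated NMD transcript, 18 of the 82, included 16 that were tested, and all 16 had a log2 fold change above 0 at 20 mg/kg, with a median of 0.43. Of the 60 without one, 53 were above 0, with a median of 0.35. *Rpl3*, the core large-subunit protein whose own protein promotes its NMD form, had 0.18 (SE 0.25, adjusted p = 0.735) and *Rpl12* had 0.95 (SE 0.44, adjusted p = 0.254) by limma with Benjamini-Hochberg adjustment. With its copies added, *Rpl12* was 127 to 208 TPM in the 6 control mice and 173 to 383 TPM in the 5 treated mice, with 4 of the 5 above every control, and the log2 fold change was 0.77 (limma, Benjamini-Hochberg adjusted p = 0.100). TPM per gene do not separate the NMD form from the coding form. Members with a small nucleolar RNA gene in their annotated span on the same strand, 27 tested, were above 0 in 23 (median 0.36). The 49 others were above 0 in 46 (median 0.43). Of the 13 genes with a tract at the RefSeq start, 12 were above 0, with a median of 0.57 and 7 with an unadjusted p under 0.05. Of the 42 tested genes with a promoter and no tract at the start, 39 were above 0, with a median of 0.40 and 9 with such a p. *Rps10*, *Rplp2*, *Rpl14* and *Rpl38*, whose starts are printed above, have tracts and did not overlap between groups, but neither *Rps19* nor *Rpsa* has a tract at the listed start.

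Members named for their roles had the following values at 20 mg/kg. The stalk genes *Rplp0* and *Rplp1* had log2 fold changes of 0.29 (SE 0.24) and 0.20 (SE 0.32), and *Rplp2* had 0.54 (SE 0.22) with 779 to 1161 TPM in control and 1299 to 1697 TPM in treated mice. *Rpl5* and *Rpl11*, which form the 5S particle that can bind MDM2, had 0.42 (SE 0.26) and -0.04 (SE 0.28). *Rps27a*, made as a fusion with ubiquitin, had 0.19 (SE 0.26), *Rpl10*, the last protein to join the large subunit, 0.33 (SE 0.22), *Rps2* 0.33 (SE 0.27), *Rps6* 0.48 (SE 0.31) and *Rpl22* 0.09 (SE 0.23). The paralog *Rps27l* had 0.43 (SE 0.41), and *Rps4l*, annotated as a transcribed processed pseudogene, had 0.94 (SE 0.45). None of these 12 passed the limma test with Benjamini-Hochberg adjustment.

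Related lists gave other values. The 8 tested ribosomal genes that carry other symbols, *Rack1* among them, all had log2 fold changes above 0 (median 0.30), among them *Fau*, which encodes a small-subunit protein fused to a ubiquitin-like one, and none of them passed. The 16 translation factors of the TOP class were above 0 in 10 cases (median 0.07), the 30 ribosome biogenesis genes in 15 (median 0.02), the 14 genes that control ribosomal protein mRNAs in 6 (median -0.13) and the 75 mitochondrial ribosomal protein genes in 34 (median -0.04), with none passing. Of 43 numbered ribosomal protein pseudogenes, 21 were above 0 (median -0.14). Among 10 NMD factors, 4 were above 0 and 1 passed, *Upf3b* itself, lower. Of the 6 markers of sinusoidal endothelium, whose sum was 602 to 1661 TPM in control and 1537 to 2223 TPM in treated mice, *Pecam1* alone passed, higher, and the other 5 were below 0. All 7 hepatocyte markers were below 0 (median -0.24), as were the 3 tested stellate cell markers (median -0.32). Of 8 tested Kupffer cell markers 6 were above 0 (median 0.23), and their sum was 253 to 833 TPM (median 343) in control and 351 to 720.1 TPM (median 535) in treated mice. The part of these cell types in the values of the members was not tested.

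At 10 mg/kg against Control-GalNAc-ASO at 15 mg/kg, no member passed. By limma with Benjamini-Hochberg adjustment over 9166 genes, 0 of 76 members and 0.295% of all genes passed, and the smallest adjusted p of a member was 0.233. An unadjusted p under 0.05 was found for 8 members, against 15.8% of all genes in either direction. Among them were *Rps14* (0.76) with a log2 fold change above 0, and *Rpl4* (-0.91), *Rpl37a* (-0.82), *Rpl11* (-0.80), *Rpl7*, *Rpl17* and *Rpl29* with values below 0. Only 23 of the 76 members had a log2 fold change above 0, and the median was -0.24, while the median over all genes was -0.03. The members took 3.21 ± 0.294% (SD, n = 4) and 2.96 ± 0.764% (SD, n = 5) of the TPM. Mitochondrial transcripts took 5.68, 4.99, 5.63 and 5.56% in the control mice and 4.93, 7.30, 10.0, 6.71 and 9.20% with *Upf3b*-GalNAc-ASO, so that 4 of the 5 treated mice lay above every control. Their part in the members' values was not tested.

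These values differed without the library labelled replicate 3 at 10 mg/kg. With the 4 others, 40 members were above 0 and 36 below, the median log2 fold change was 0.03, and the share was 3.26 ± 0.392% (SD, n = 4). By limma with Benjamini-Hochberg adjustment, 91 of 9203 genes and 0 members passed. An unadjusted p under 0.05 was found for 7 members upward and 3 downward. The share of all genes with such a p was not taken in this fit, and it was 15.8% with all 5 libraries, so this count has no background of its own. With all 5 libraries the groups did not overlap in 4 members that were lower with *Upf3b*-GalNAc-ASO (*Rpl11*, *Rpl21*, *Rpl37a* and *Rps26*, against 2.73% of all genes), and 0 members were higher without overlap, against 2.08%. *Rpl11* was 783, 807, 701 and 704 TPM in control mice and 562, 475, 226, 537 and 488 TPM with *Upf3b*-GalNAc-ASO, and the library at 226 TPM is the one labelled replicate 3. *Rpl37a* was 322, 283, 224 and 240.3 TPM against 202, 109, 79.8, 200.9 and 223 TPM. Both are large-subunit proteins, *Rpl11* one that can bind MDM2. Without that library their log2 fold changes were -0.52 and -0.53 in place of -0.80 and -0.82. At 20 mg/kg they were -0.04 and 0.07 and the groups overlapped.

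The genes that rose at 20 mg/kg were 432, 477, 404 and 875 TPM (*Rps19*) and 475, 417, 483 and 757 TPM (*Rps14*) in mice given Control-GalNAc-ASO at 15 mg/kg. With *Upf3b*-GalNAc-ASO at 10 mg/kg, they were 895, 1006, 573, 349 and 919.9 TPM and 1284, 1038, 1002, 360.3 and 889 TPM. In both genes the mouse of replicate 4, at 349 and 360.3 TPM, lay below all control values, and the groups overlapped. The log2 fold changes were 0.45 (SE 0.36, adjusted p = 0.562) and 0.76 (SE 0.34, adjusted p = 0.296) by limma with Benjamini-Hochberg adjustment, and 0.61 (adjusted p = 0.389) and 0.79 (adjusted p = 0.230) without the library labelled replicate 3. The largest estimates upward were those of *Rpl12* at 1.05 (SE 0.54) and *Rpl35* at 0.82 (SE 1.14), both with more reads on copies than on the gene, and without that library they were 1.43 and 0.34.

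**Figure D5:**
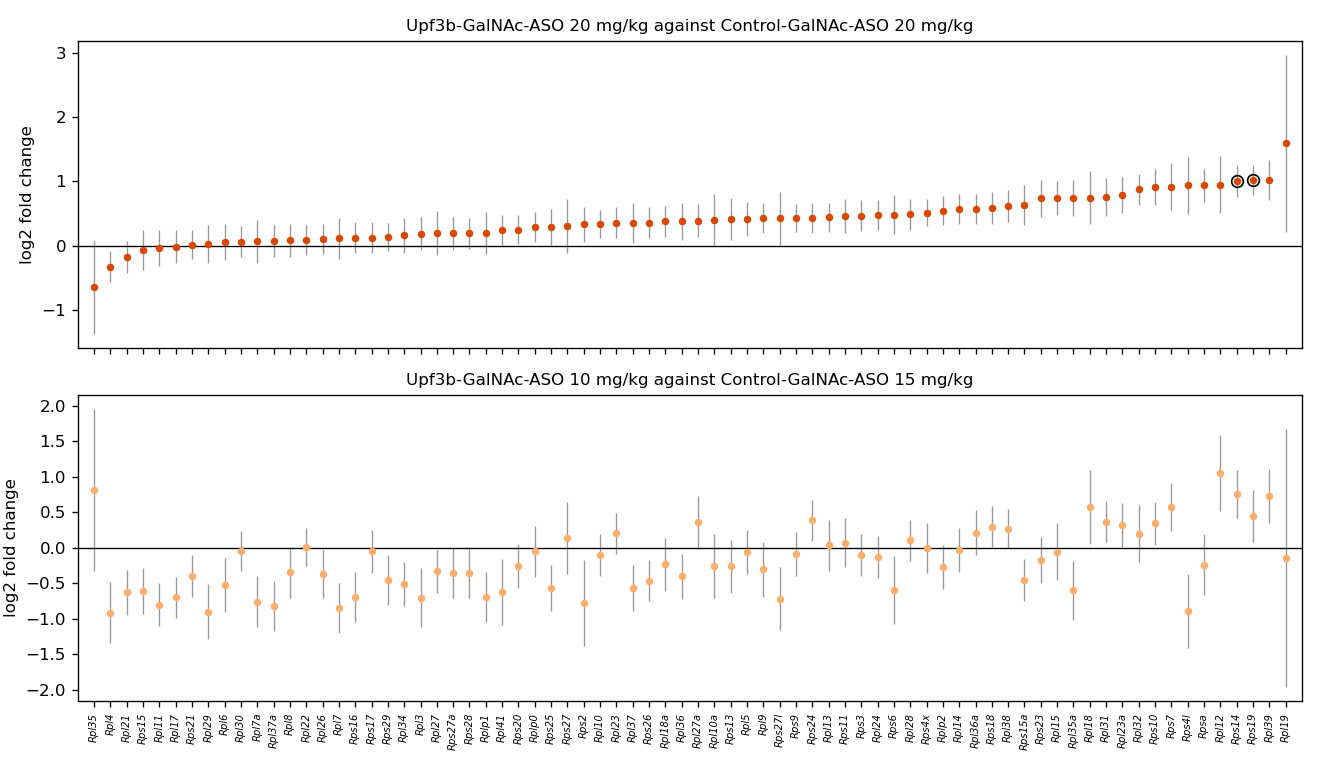
Log2 fold change (points) with its standard error (lines) of 74 of the 76 tested ribosomal protein genes for *Upf3b*-GalNAc-ASO against Control-GalNAc-ASO, at 20 mg/kg in the upper panel and at 10 against 15 mg/kg in the lower, with genes in the same order in both and rings around *Rps14* and *Rps19*, which passed the test. Points lie mostly above 0 at 20 mg/kg (69 of all 76 tested) and mostly below 0 at 10 against 15 mg/kg (23 of all 76 above).

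Of the lists at 10 against 15 mg/kg, ribosome biogenesis genes were above 0 in 23 of 30 (median 0.60), with 1 passing upward, *Tcof1*, a nucleolar factor for ribosomal RNA transcription (log2 fold change 2.25, SE 0.44, limma, Benjamini-Hochberg adjusted p = 0.0491). The 8 ribosomal genes with other symbols were above 0 in 4 (median -0.07), the TOP translation factors in 7 of 16 (median -0.02), the control genes in 10 of 14 (median 0.20), mitochondrial ribosomal protein genes in 32 of 77 (median -0.10) and numbered pseudogenes in 10 of 33 (median -0.81). Among 10 NMD factors 8 were above 0 and *Upf2* passed, higher. Members with a tract at the start were above 0 in 6 of 13 (median -0.04) and those without in 12 of 42 (median -0.21). Without the library labelled replicate 3 these were 9 of 13 (median 0.22) and 23 of 42 (median 0.06), and the ribosome biogenesis genes were above 0 in 25 of 30 (median 0.47), the TOP translation factors in 10 of 16 (median 0.31), the control genes in 8 of 14 (median 0.029), the mitochondrial ribosomal protein genes in 39 of 77 (median 0.0068) and the pseudogenes in 13 of 36 (median -0.87). The genes with other symbols were then above 0 in 4 of 8 (median 0.089), and *Tcof1* (adjusted p = 0.0273) and *Upf2* (adjusted p = 0.0228) passed by limma with Benjamini-Hochberg adjustment. With all 5 libraries, members with an annotated NMD transcript were above 0 in 5 of 16 (median -0.24) and those without one in 18 of 60 (median -0.22). Members with a small nucleolar RNA gene in the span were above 0 in 8 of 27 (median -0.23) and the others in 15 of 49 (median -0.26). Without the library labelled replicate 3, the NMD groups were at 11 of 16 (median 0.18) and 29 of 60 (median -0.03). The groups by small nucleolar RNA gene were then at 16 of 27 (median 0.05) and 24 of 49 (median -0.03).

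The difference between both *Upf3b*-GalNAc-ASO effects was tested itself. By limma with Benjamini-Hochberg adjustment over 9797 genes, 0 genes (0%) and so 0 members passed, with 219 genes higher and 580 lower at an unadjusted p under 0.05. At that unadjusted p, 6 members were more positive at 20 mg/kg, against 2.24% of all genes, and 0 were lower. They were the annotated pseudogene *Rps4l* (difference in log2 fold change 1.86), *Rpl35a* (1.33), *Rpsa* (1.13), *Rps23* (0.89), *Rps26* (0.81) and *Rplp2* (0.80). The difference was above 0 for 73 of the 76, with a median of 0.53, while that over all genes was -0.07. The count of 6 was 3 without the library labelled *Upf3b*-GalNAc-ASO 10 mg/kg replicate 3 or without Control-GalNAc-ASO 15 mg/kg replicate 1, 15 without *Upf3b*-GalNAc-ASO 10 mg/kg replicate 1, and between these when any other mouse was left out. It was 19 with median-of-ratios scaling, where the median over all genes was 0.06. The share of all genes at that p was not taken in these alternative fits, so their counts have no background of their own. The members' median was 0.32 without that replicate 3 and 0.30 without the 4 mice under 1500000 reads.

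Values against the vehicle use the same 11 DPBS-treated mice in all 4 comparisons and are given side by side. With Control-GalNAc-ASO at 15 mg/kg, limma with Benjamini-Hochberg adjustment called 0 of 8971 genes (0%), with 644 at an unadjusted p under 0.05, and the members had a median log2 fold change of 0.06 (all genes 0.07). With Control-GalNAc-ASO at 20 mg/kg, 0 of 9140 genes (0%) passed, and the members' median was -0.14 while that of all genes was 0.15. Here 56 of the 76 members were below 0, and 14 had an unadjusted p under 0.05 downward and 0 upward, against 2.75% of all genes downward. These 14 included *Rpl18* (-1.03), *Rps14* (-0.62), *Rps10* (-0.58), *Rpl39* (-0.56) and *Rpl32* (-0.53). After rescaling by median-of-ratios factors the members' median was -0.25 and that of all genes 0.04. With near-identical copies summed, 44 of 77 members were below 0, the median was -0.06 and 6 members had such a p, as had 6 with the numbered pseudogenes summed and 8 when Control-GalNAc-ASO replicate 3 or 5 was left out. The share of all genes with such a p was not taken in those fits, so these counts have no background of their own.

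With *Upf3b*-GalNAc-ASO at 10 mg/kg against DPBS, 0.376% of 9032 genes and 0 members passed, with a members' median of -0.18 (all genes 0.03) that was 0.077 without the library labelled replicate 3. With *Upf3b*-GalNAc-ASO at 20 mg/kg, 1.13% of 9078 genes and 0 members passed, 66 of the 76 members were above 0, and their median was 0.18 (all genes 0.05). Upward at an unadjusted p under 0.05 were *Rps19* (0.64, limma, Benjamini-Hochberg adjusted p = 0.172), *Rpsa* (0.59), *Rpl36a* (0.55) and *Rpl23* (0.48). These 4 of the 76 members (5.26%) stand against 5.38% of all genes, so their count is near the share of all genes. Side by side, the log2 fold changes against DPBS at 20 mg/kg with Control-GalNAc-ASO and with *Upf3b*-GalNAc-ASO were -0.34 and 0.64 for *Rps19*, -0.62 and 0.35 for *Rps14*, -0.32 and 0.59 for *Rpsa*, and -0.53 and 0.34 for *Rpl32*. These 4 genes were chosen for the size of their difference between both oligonucleotides, and both values share the DPBS-treated mice. No member passed the adjustment in any of the 4 comparisons with DPBS.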

How the data were processed

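RNA-seq of liver was performed on 31 mice in 5 groups, assigned by their labels. The authors quantified reads with Salmon 0.7.2 after bcl2fastq 2.17.1.14, per the labels against GRCm38.p4, and deposited the TPM of each gene symbol, 1 file per mouse. The labels name a 3′-end library kit and the study's methods a TruSeq protocol, and the dose entry of the labels says weekly. Between 69.0% and 81.6% of values were whole multiples of 1 read within 0.02 (4% by chance), so the TPM are mostly scaled reads, and no test for counts was run. Reads shared between copies were split by the quantification, and genes with many copies are affected most.

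Of 31198 symbols, 26 turned into dates were left out. Log2(TPM + 1) was fitted with limma 3.58.1 in R 4.3.3 (eBayes with trend and robust) with sex as covariate, using only the mice of both groups compared. A gene was tested if its median reached 5 TPM in either group, and p-values were adjusted by Benjamini-Hochberg, calling at 0.05. Fold changes are on the log2(TPM + 1) scale and understate those of low genes. Depth sets a floor of 3 reads, which covers counting error only. Annotation was GENCODE M21, and copies were found with blastn 2.17.0. Promoters came from RefSeq. Descriptions used Python 3.11.15, numpy 2.4.6, pandas 2.3.3 and scipy 1.17.1, and figures matplotlib 3.10.9. The fit was tested on simulated data with the spread of all genes, and it called 0 genes where none was changed. Genes were drawn independently of each other, so shifts shared by a whole library were not simulated. The changed genes were drawn from all genes tested, and rates for the members, whose median spread was lower, were not taken. Of genes changed by a log2 of 1, it called 1% at 10 against 15 mg/kg and 9% at 20 mg/kg. Of those changed by a log2 of 2, it called 23% and 48%. A gene that did not pass may therefore still have changed.

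The genes, the related lists and the tests were chosen with earlier results of these data known. Named genes were those passing the test, the 5 largest and 5 most negative estimates in both comparisons of the oligonucleotides, the 5 highest and 5 lowest levels in the vehicle group, and genes fixed for their role. Others were named as counts of members required it, after their values were seen. Alternatives were other pseudocounts, filters, scalings, models, sums with copies and pseudogenes, and leaving out mice. Summing near-identical copies, leaving out mice under 1500000 reads and the related lists without *Upf3b*-GalNAc-ASO 10 mg/kg replicate 3 were added after seeing the data. Results of some single genes are not reported here, though they count in the totals.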

Additional observations from a re-analysis of the deposited data

Results flagged for a closer look

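In 16 of 139 groups of 4 to 6 mice (11.5%), 1 mouse lay far from the others by Dixon's test, where chance flags about 1 in 20 groups. That rate does not hold where all other mice are at 0, since any value above 0 is then flagged. Such groups, listed last, are among the 16, so 11.5% cannot be set against 1 in 20. The library labelled *Upf3b*-GalNAc-ASO 10 mg/kg replicate 3 accounted for 4 of these, with *Rpl11* at 225.7 TPM (others 475 to 562), *Rpl21* at 127.6 TPM (293 to 317), *Rpl35* at 111.0 TPM (2.58 to 31.9) and *Rps2* at 10.9 TPM (143 to 178).

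*Rpl35* was also far from the others in Control-GalNAc-ASO 15 mg/kg replicate 4 at 239.9 TPM (2.93 to 5.21) and in Control-GalNAc-ASO 20 mg/kg replicate 1 at 290.6 TPM (7.56 to 43.1). In the latter mouse, 1 of the 4 with under 1500000 reads, *Rps2* was 200.4 TPM (87.7 to 118). At 15 mg/kg of Control-GalNAc-ASO, *Rps19* was 874.8 TPM in replicate 4 (404 to 477), *Rps24* 714.9 TPM in replicate 1 (588 to 604) and *Rps27l* 161.9 TPM in replicate 2 (107 to 111).

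The remaining cases were genes listed at 0 in the other mice of their group. *Rpl13a* was 8.27 TPM in *Upf3b*-GalNAc-ASO 10 mg/kg replicate 1. *Rpl3l* was 0.276 TPM in Control-GalNAc-ASO 15 mg/kg replicate 3 and 0.650 TPM in *Upf3b*-GalNAc-ASO 10 mg/kg replicate 1. *Rpl6l* was 0.265 TPM in Control-GalNAc-ASO 15 mg/kg replicate 1, 0.223 TPM in Control-GalNAc-ASO 20 mg/kg replicate 2 and 0.335 TPM in *Upf3b*-GalNAc-ASO 20 mg/kg replicate 1. The values of *Rpl3l* and *Rpl6l* are under the 3-read floor of their mice.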

How the results depend on the processing

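The number of members passing at 20 mg/kg against Control-GalNAc-ASO was 2 as reported. It was 4 with a pseudocount of 5, 1 without the filter, 6 with median-of-ratios and 4 with upper-quartile scaling, 0 without trend and robust, 1 without mice under 1500000 reads, and 0 to 4 when single mice were left out (0 without Control-GalNAc-ASO replicate 3 or *Upf3b*-GalNAc-ASO replicate 6, 4 without *Upf3b*-GalNAc-ASO replicate 2). The number of all genes passing moved as well. It was 236 as reported, 304 with a pseudocount of 5, 67 without the filter, 281 with median-of-ratios and 230 with upper-quartile scaling. It was 60 without trend and robust, 143 without mice under 1500000 reads, and 70 to 270 when single mice were left out. The adjusted p ranged over all alternatives from 0.00646 to 0.170 for *Rps19* and from 0.0158 to 0.210 for *Rps14*. By 2-fold and p of 0.01, 1 member each passed, downward, for Control-GalNAc-ASO at 15 and at 20 mg/kg against DPBS. Of all genes, 42 of 8971 and 38 of 9140 passed downward, and 40 and 77 upward. The members' median for *Upf3b*-GalNAc-ASO at 10 mg/kg against DPBS was -0.31 to 0.077 when single mice were left out, and that of males against females was 0.14 with upper-quartile scaling. At 10 against 15 mg/kg it was -0.40 to 0.03.

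Signs were followed only for genes that passed or had the 5 largest or 5 most negative estimates in either comparison of the oligonucleotides. Among them, signs changed for 3 genes that did not pass. Across all members, 69 of 76 were above 0 at 20 mg/kg, 59 of 77 with copies summed, and 62 to 71 when single mice were left out. At 10 against 15 mg/kg, 23 of 76 were above 0, and 40 without the library labelled replicate 3. *Rpl39* was -0.79 with pseudogenes or copies summed at 10 against 15 mg/kg and -0.24 and -0.26 at 20 mg/kg. *Rpl35* was -0.40 at 10 and 0.10 at 20 mg/kg with copies summed, and -0.14 to 1.98 when single mice were left out at 10 mg/kg. *Rps15* at 20 mg/kg was 0.045 with median-of-ratios and 0.041 with upper-quartile scaling, 0.074 with the replicate block and -0.34 to 0.18 when single mice were left out. The cause was not tested.

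Mice with the same replicate number did not deviate together (correlations -0.18 to 0.36 in 4 pairs and -0.26 to 0.10 in 5 pairs), so numbers were not taken as pairs. With the replicate block, 0 members passed at 20 mg/kg (*Rps19* 1.01, adjusted p = 0.170; *Rps14* 0.94, adjusted p = 0.210, by limma with Benjamini-Hochberg adjustment).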
